A study of Homo sapiens with 11 samples.

Results

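The major histocompatibility complex (MHC) region of chromosome 6 held 142 of the 36191 JMJD1C peaks that the authors deposited for Kasumi-1 cells. A peak was a member when its summit lay between 29 and 33.5 Mb of chromosome 6 in the hg19 build, and the choice used position alone. The region was divided by the same positions into class III from 31.5 to 32.2 Mb (45 peaks), class II from 32.2 to 33.5 Mb (32 peaks) and class I from 29 to 31.5 Mb (65 peaks). The other 1816 peaks of chromosome 6 served for comparison. The label of the region rests on these positions, since no hg19 gene annotation was used here to check it, and no peak is tied to a gene.

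Kasumi-1, an established human line of leukaemic myeloblasts with the RUNX1-RUNX1T1 fusion, was grown without any treatment named in the labels. The JMJD1C chromatin was precipitated with a home-made antiserum raised against the protein's N-terminus and sequenced (ChIP-seq). The series holds 11 libraries, with JMJD1C in Kasumi-1, HL60, NB4 and THP-1 cells, the transcription factor LYL1 in the same 4 lines and input DNA of Kasumi-1, HL60 and NB4 cells. Only the Kasumi-1 JMJD1C library was analysed here, with 19897991 tags once duplicates at the same position had been dropped. It has no replicate, and its peaks were called without input.

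JMJD1C belongs to the JmjC-domain histone demethylases, a family that removes methyl groups from histone lysines. The MHC is a gene-rich region whose class I and class II genes encode the cell-surface proteins that present peptides to T cells. Class I molecules are carried by most nucleated cells, while class II molecules such as HLA-DR, HLA-DQ and HLA-DP are typical of antigen-presenting cells, including monocytes. The class II part also holds genes of peptide processing (TAP1 and TAP2, the peptide transporter, and PSMB8 and PSMB9, proteasome subunits). Class III lies between them and presents no antigen; it holds complement genes (C2, CFB, C4A and C4B), cytokine genes (TNF, LTA and LTB), heat shock protein genes (HSPA1A, HSPA1B and HSPA1L) and many genes of general function. Among these are EHMT2, a histone H3 lysine 9 methyltransferase, and NELFE, a subunit of a complex that pauses RNA polymerase II.

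Gene order from the RefSeq table of assembly GRCh38.p14 was used as background, without its positions. All 40 genes of the background list were found on chromosome 6. In that table, 58 protein-coding genes run from DDX39B to NOTCH4 in class III, 18 from HLA-DRA to HLA-DPB1 in class II and 49 from HLA-F to MICB in class I. The class II segment analysed here reaches past HLA-DPB1 and the class I segment starts before HLA-F, so these numbers are not gene counts of the segments.

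JMJD1C peaks were dense over the MHC region compared with chromosome 6 as a whole, and class III was the densest part. The region had 31.6 peaks per Mb (exact Poisson 95% interval 26.6 to 37.2), against 10.9 per Mb on the rest of chromosome 6 (10.4 to 11.4). The ratio was 2.89 (2.42 to 3.43, exact binomial interval). With 2.63% of the length of chromosome 6 between its first and last peak, the region held 7.25% of its peaks and 9.6% of its tags in peaks. Class III had 64.3 peaks per Mb (46.9 to 86.0), class II had 24.6 (16.8 to 34.8) and class I had 26 (20.1 to 33.1). Each class, taken whole, was denser than the rest of the chromosome, by a factor of 5.89 for class III (4.28 to 7.91), 2.26 for class II (1.54 to 3.20) and 2.38 for class I (1.83 to 3.05). The class II excess did not run through the class. Of its 32 peaks, 21 lay from 33 to 33.5 Mb, while the stretch from 32.2 to 32.8 Mb held 2 (3.33 per Mb). There is no test across replicates for any of these values. The intervals cover counting error within 1 library and treat peaks as independent, which neighbouring peaks need not be.

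**Figure D1:**
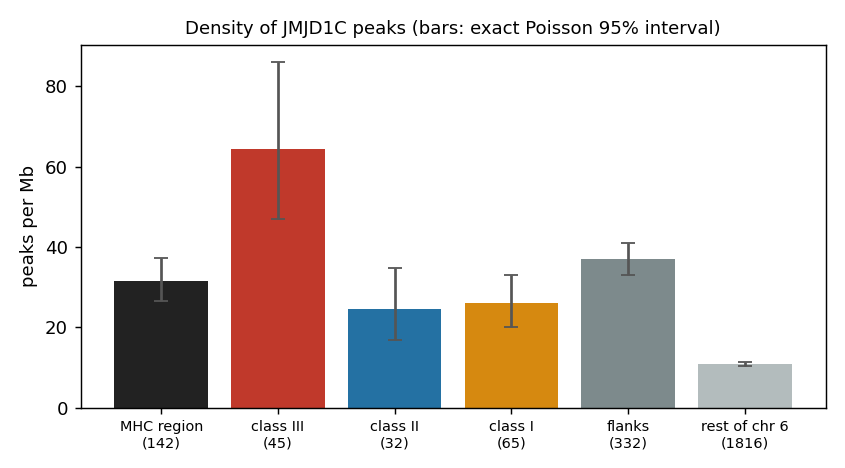
Peaks per Mb in the MHC region, its 3 classes, the flanks and the rest of chromosome 6, with the number of peaks in brackets; lines are exact Poisson 95% intervals. Class III stands at 64.3 per Mb, the flanks at 36.9 and the rest of the chromosome at 10.9.

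The excess over the chromosome was shared with the neighbouring stretches, and the region as a whole was not denser than these. The flanks, taken as 4.5 Mb on each side, had 36.9 peaks per Mb (33.0 to 41.1) from 332 peaks. The MHC region was at 0.855 of that density (0.698 to 1.04), so the direction of the comparison turned. Against the lower flank, with 39.8 peaks per Mb, the ratio was 0.793 (0.632 to 0.994), and against the upper flank, with 34 per Mb, it was 0.928 (0.733 to 1.17). The classes differed in this comparison. Class III had 1.74 times the density of the flanks (1.25 to 2.38), while class II had 0.667 (0.449 to 0.961) and class I had 0.705 (0.532 to 0.922). Among 37 consecutive windows of 4.5 Mb on chromosome 6, of which the region is one, the region ranked 3 by number of peaks, after its lower flank (rank 1) and its upper flank (rank 2). The next windows held 90 peaks each. In tags rather than peaks the region was above its flanks, with 1918 tags in peaks per Mb against 1530 in the flanks. The rest of the chromosome had 489. This excess over the flanks lay in class III, with 5204 per Mb, while class II had 1076 and class I had 1436. Of the region's tags in peaks, 17.2% lay in 3 class III peaks.

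**Figure D2:**
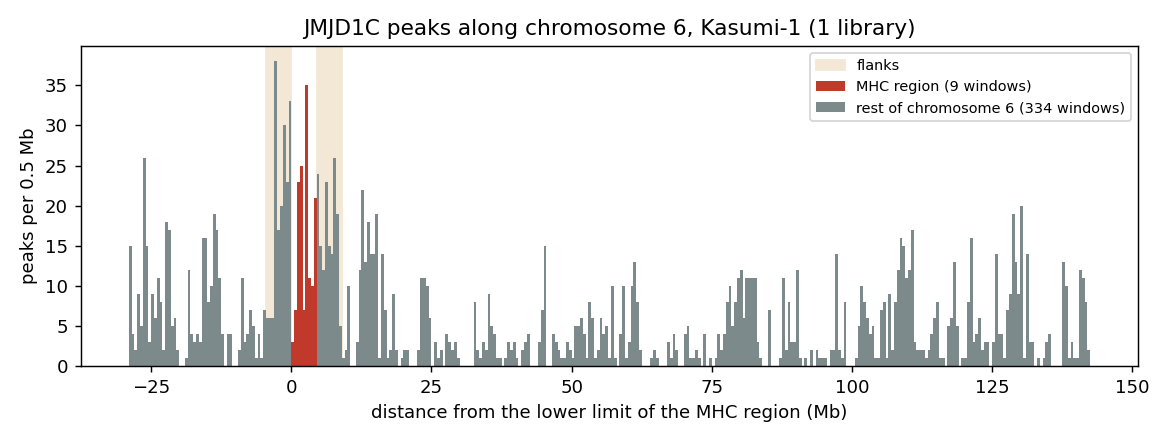
Number of JMJD1C peaks in consecutive windows of 0.5 Mb along chromosome 6, by distance of the window centre from the lower limit of the MHC region; the 9 windows of the region are red and the flanks are shaded. The window with 35 peaks in class III is the tallest of the region, and the tallest of the chromosome, with 38 peaks, lies in the lower flank.

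Peaks were unevenly spread inside the region. In windows of 0.5 Mb the count ran from 3 to 35 with a median of 11, against 0 to 38 with a median of 3 over the 334 windows of the rest of chromosome 6. The window from 31.5 to 32 Mb, within class III, held 35 peaks and ranked 2 among all 343 windows of the chromosome. The windows from 30.5 to 31 Mb and from 30 to 30.5 Mb, both in class I, held 25 and 23 peaks and ranked 7 and 9. At the other end, the window from 29 to 29.5 Mb held 3 peaks.

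**Figure D3:**
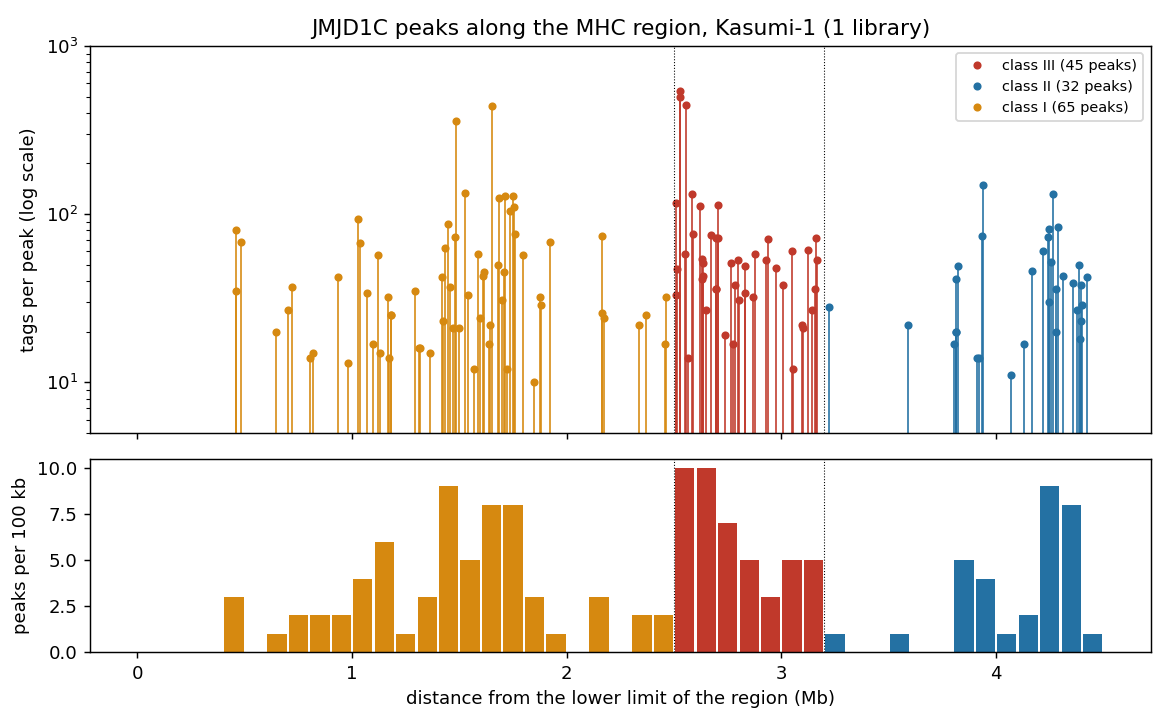
Upper panel, tags per peak (log scale) for each of the 142 peaks by distance of its summit from the lower limit of the MHC region; lower panel, peaks per 100 kb, with dotted lines at the class limits. The tallest group lies just inside class III, and class II is nearly empty over its first 0.6 Mb.

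Between class III and the other classes the difference in density exceeded counting error. Class III had 2.47 times the density of class I (1.65 to 3.67) and 2.61 times that of class II (1.62 to 4.25). Class II stood at 0.947 of class I, with an interval of 0.60 to 1.47 that holds both directions. Its interval lay below 1 in a pair of alternatives that cut the classes unequally. With peaks of fold enrichment of at least 10 alone the ratio was 0.385 (0.156 to 0.833). That filter kept 25% of class II peaks and 61.5% of class I peaks. Without the outer 0.5 Mb of class I and of class II it was 0.444 (0.211 to 0.850). That cut removed 21 class II peaks and 3 class I peaks. Class III was also covered most evenly. None of its 7 windows of 100 kb lacked a peak, whereas 4 of 13 windows in class II, 7 of 25 in class I and 889 of 1665 on the rest of chromosome 6 did. The fullest windows of class III held 10 peaks each, and its median window held 5, against 1 in class II, 2 in class I and 0 on the rest of the chromosome. With peaks of fold enrichment of at least 10 alone, class III over class I dropped to 1.52 (0.807 to 2.74).

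In class III the peaks were the richest in tags. Its median peak held 51 tags (quartiles 34 and 72; 95% interval of the median 38 to 58), against 37 in class II (quartiles 20 and 50.5; 22 to 49), 33 in class I (quartiles 21 and 67; 25 to 43) and 27 on the rest of chromosome 6 (quartiles 17 and 50; 26 to 29). Peaks of class III were also long, with a median of 662 bp against 605 bp in class II, 522 bp in class I and 463.5 bp on the rest of the chromosome. Per unit of length, class III had 5204 tags in peaks per Mb, which was 10.6 times the 489 on the rest of the chromosome. Class II had 1076 and class I had 1436. Weak peaks with fewer than 20 tags were 4 of 45 in class III, 6 of 32 in class II and 14 of 65 in class I. They made up 16.9% of the region (exact interval 11.1% to 24.1%), against 22.3% of the flanks (17.9% to 27.15%), 31.8% of the rest of chromosome 6 and 28.9% of the whole list. The intervals of the region and the flanks overlap. Peaks with at least 100 tags were 17 of 142 in the region (12.0%, 7.13% to 18.5%), a share near the 10.1% of the whole list. The share was lower in the flanks, at 5.12% (3.01% to 8.07%). On the rest of chromosome 6 it was 7.27% (6.12% to 8.56%). Both intervals overlap the region's, but overlap does not show that the shares are equal.

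A few sites carried much of the class III signal. Its 3 peaks with the most tags lay within 29 kb and together held 1481 tags, 40.7% of all tags in class III peaks. The first pair lay end to end with 64 bp between them. The peak from 31526240 to 31527530 held 495 tags (exact Poisson 95% interval 452 to 541) at a fold of 12.38, and the peak from 31527595 to 31528663 held 538 (493 to 585), the most in the region, at a fold of 10.72. Such a pair may be counted as 1 site of 1033 tags. The third, from 31553322 to 31555220, held 448 tags (407 to 491) and had the highest fold of class III, 24.21. The fourth, from 31583276 to 31584017, held 131 tags (110 to 155) at a fold of 19.25.

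Fold enrichment, which the authors' caller computed by dividing the summit by a local background from the same library, ordered the classes differently from tags. The median fold was 8.77 in class III (quartiles 7.02 and 10.95), 7.91 in class II (6.81 and 9.98), 11.36 in class I (8.52 and 15.96) and 11.02 on the rest of chromosome 6 (8.77 and 14.7). A fold of 10 or more was seen for 17 of 45 peaks in class III (37.8%, 23.8% to 53.5%), 8 of 32 in class II (25%, 11.5% to 43.4%) and 40 of 65 in class I (61.5%, 48.6% to 73.4%), against 60.1% of the whole list. The share for class I was near that of the list, while those of class III and class II were below it. A fold of at least 20 was found in 15 of 142 peaks of the region (10.6%, 6.03% to 16.8%), near the 9.84% of the whole list. Of these 15, there were 4 in class III, 1 in class II and 10 in class I.

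Because the caller's background comes from the 10 kb around the peak, the background and the height of the summit could both be computed from the deposited columns. Height is the number of fragments of 88 bp that overlap at the summit. Both values could be recovered, as whole numbers within 0.05 or with a background at the lower bound the caller sets, for 135 of the 142 peaks. In these, the median background was 193.5 tags per 10 kb in class III (42 peaks), 153 in class II (32 peaks), 138 in class I (61 peaks) and 123 on the rest of chromosome 6 (1733 peaks). The median summit height was 16 fragments in class III (95% interval of the median 14 to 19), 11 in class II (9 to 13), 12 in class I (10 to 15) and 12 on the rest of the chromosome (11 to 12). Class III thus had the highest summits and the highest background together, and its fold was low beside its tags. Tags of the peak itself and of nearby peaks enter this background, so it rises where peaks crowd.

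**Figure D4:**
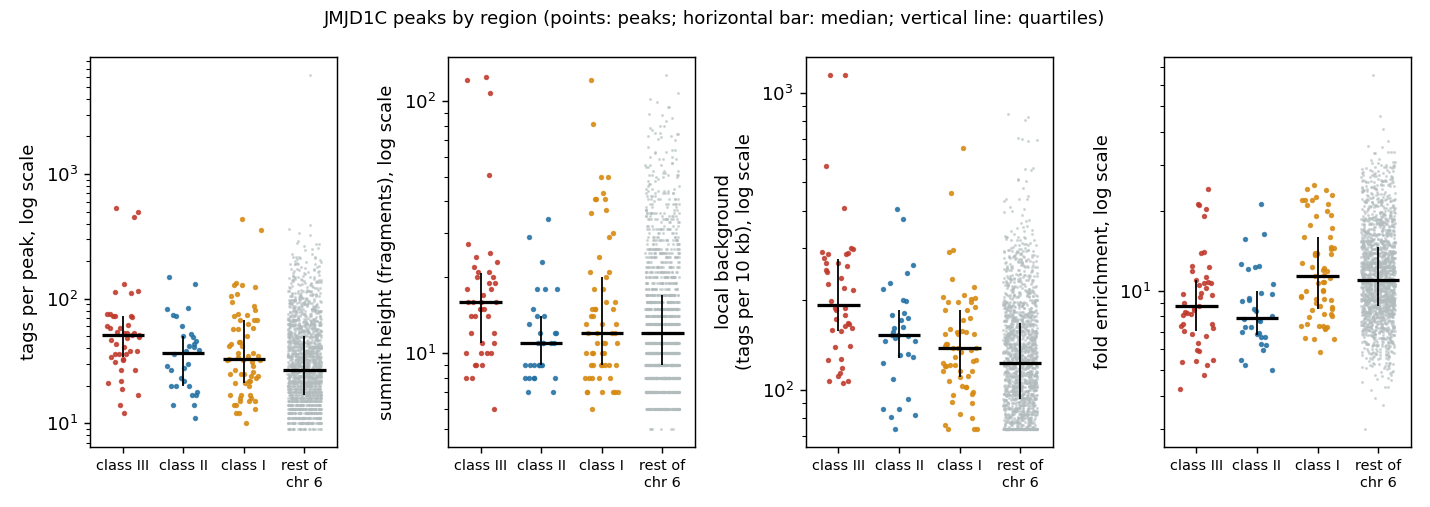
Tags, summit height in fragments, local background in tags per 10 kb and fold enrichment, each on a log scale, for the peaks of class III, class II, class I and the rest of chromosome 6; points are peaks, horizontal bars medians and vertical lines quartiles. Class III has the highest median of tags (51), height (16) and background (193.5), but not of fold (8.77).

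Tags outside a peak, those of nearby peaks included, were taken as the signal around it. Their median was 153 per 10 kb in class III, 130 in class II, 100.5 in class I, 103.5 in the flanks and 92.8 on the rest of chromosome 6. Among peaks with no other peak within 10 kb the values lay closer together, at 102 in class III (10 peaks), 81.7 in class II (11 peaks), 87.1 in class I (22 peaks) and 79.7 on the rest of the chromosome (946 peaks). These lone peaks of class III still had more tags (median 43) than those of class II (28), class I (23.5) and the rest (24). The part of depth in the number of peaks was not tested.

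Peaks of the region had close neighbours more often than those of the chromosome. Another peak lay within 10 kb of 96 of the 142 peaks (67.6%, 59.3% to 75.2%), against 49.7% in the whole list and 45.4% on the rest of chromosome 6 (43.1% to 47.7%). In the flanks it was 63.3% (57.8% to 68.4%), and that interval overlaps the region's. By class the share was 75.6% in class III (34 of 45, 60.5% to 87.1%), 65.6% in class II (21 of 32, 46.8% to 81.4%) and 63.1% in class I (41 of 65, 50.2% to 74.7%), with overlapping intervals. A share of this kind rises with density. Within 2 kb the shares were 35.6% in class III, 21.9% in class II, 21.5% in class I and 18.4% on the rest. The flanks stood at 27.1% (22.4% to 32.2%), above class II and class I. At most 100 bp separated the ends of 3 neighbouring pairs in class III, 1 in class II and 2 in class I. The flanks had 6 such pairs and the rest of chromosome 6 had 38.

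The distances between consecutive summits showed how the classes were filled. Their median was 11.2 kb in class III (quartiles 3.4 and 23.2), 9.79 kb in class II (4.14 and 31.1), 14.2 kb in class I (6.56 and 36.0) and 29.5 kb on the rest of chromosome 6 (9.42 and 79.9). The flanks had a median of 14.15 kb (5.61 and 29.65), near that of class I, so short spacing was shared with them. The mean was 14.9 kb in class III, 38.7 kb in class II, 31.3 kb in class I and 26.0 kb in the flanks. Median over mean was therefore 0.754 in class III, 0.253 in class II, 0.454 in class I, 0.543 in the flanks and 0.322 on the rest. Among distances between summits of the same class, class II had both the shortest median and the longest single distance, while class III had none over 51.55 kb. The peak-free first 458 kb of class I is not among these distances. With peak-free stretches at the class limits counted, those over 100 kb took up 0% of class III, 54.6% of class II and 50.02% of class I.

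**Figure D5:**
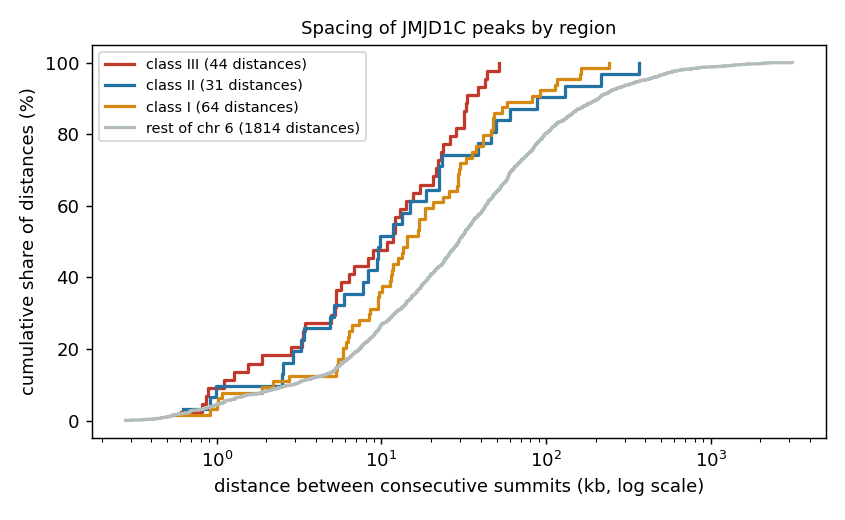
Cumulative share of distances between consecutive summits (kb, log scale) within class III, class II, class I and the rest of chromosome 6. The class III curve ends at 51.55 kb, the class II curve at 368 kb, and the curve of the rest lies to the right of all 3 over most of its range.

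Class II was split into a nearly empty and a well-filled part. From 32.2 to 32.8 Mb it held 2 peaks (3.33 per Mb, exact Poisson interval 0.404 to 12.0), and from 32.8 to 33.5 Mb it held 30 (42.9 per Mb, 28.9 to 61.2). The point of division was chosen after the counts were seen. Of the 3 longest gaps with a peak of the region at both ends, 2 lay in this empty part. The longer ran for 367 kb from 32223522 to 32590736, and another for 215 kb from 32591186 to 32805737. Between them stood a single peak, from 32590736 to 32591186, with 22 tags (13.8 to 33.3), a fold of 12.63 and a summit of 9 fragments. Signal around it was 61.8 tags per 10 kb, and around the other peak of the empty part, from 32222976 to 32223522 with 28 tags, it was 61.4. In the filled part the median signal around peaks was 132.5 tags per 10 kb. This signal includes tags of nearby peaks, and the peaks of the empty part had none within 10 kb. Over the 11 class II peaks with no other within 10 kb, these among them, the median was 81.7. The part of depth in this division was not tested, nor was how well reads can be placed in the empty part.

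In the filled part of class II, peaks were moderate and gathered in groups. Joining peaks up to 10 kb apart gave 3 groups of 5 or more peaks, which held 16 of the 32 class II peaks (50%). Groups of this size held 22.2% of the peaks in class III and 5.51% on the rest of chromosome 6. The first, from 32805737 to 32822135, had 5 peaks with 147 tags and folds of 6.31 to 9.69. A second, from 33239175 to 33267820, had 5 peaks with 369 tags. The last, from 33377843 to 33399270, had 6 peaks with 185 tags, more peaks than any other group of the region. The peak with the most tags in class II, from 32939176 to 32941019, held 148 (125 to 174) over 1844 bp, but its fold of 5.03 was the lowest of the class. Its summit of 18 fragments was above the class median of 11. Its background of 407 tags per 10 kb, which includes its own tags, was the highest of the class. Fewer tags, 132 (110 to 157), were counted from 33266443 to 33267820, with a summit of 34 fragments at a fold of 15.64. A peak from 33290462 to 33291283 reached a fold of 16.4 with 84 tags (67.0 to 104), and one from 33244614 to 33245439 a fold of 7.81 with 82 tags (65.2 to 102). The highest fold of class II, 21.25, belonged to a peak with 43 tags (31.1 to 57.9) from 33312911 to 33313396.

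Class I peaks concentrated in its centre. The stretch from 30 to 31 Mb held 48 of the 65 peaks (48 per Mb, 35.4 to 63.6) and 84.1% of the class I tags, against 10 peaks from 29 to 30 Mb and 7 from 31 to 31.5 Mb. This division, too, was chosen after the counts were seen. All 8 class I peaks with at least 100 tags lay in the centre. The median signal around the peaks of the centre was 103 tags per 10 kb. It was 71.7 from 29 to 30 Mb and 142 from 31 to 31.5 Mb. Tags of nearby peaks are part of this signal. From 31 to 31.5 Mb, the peaks starting at 31334672 and 31367374 had no other peak within 10 kb. The signal around them was 54.1 and 102. The part of depth in these values was not tested. The first peak of the region began 458 kb above the lower limit, after a gap of 473 kb. The longest gap with a class I peak at both ends ran for 241 kb from 30923805 to 31164737.

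A pair of class I peaks led in tags and also had high folds. From 30649759 to 30651176, a peak held 438 tags (398 to 481), with a summit of 121 fragments and a fold of 21.19. A second, from 30483354 to 30484840, held 358 tags (322 to 397), with a summit of 81 fragments and a fold of 19.97. Next by tags came the peaks from 30523296 to 30525340, with 133 (111 to 158) over 2045 bp at a fold of 10.08, and from 30710090 to 30711047, with 129 (108 to 153) at a fold of 22.01. The highest folds were reached by smaller peaks. They were 25.18, the highest of the region, from 30736884 to 30737755 with 105 tags, 24.35 from 30431252 to 30431832 with 63 tags, 24.08 from 30749482 to 30750061 with 128 tags, and 23.05 from 29483764 to 29484333 with 68 tags. The last of these lay in the sparse lower part of class I, and its nearest other peak was 24898 bp away. No group of 5 or more joined peaks was found in class I. Such groups were also rare on the rest of chromosome 6, at 17 of 1316. The 41 joined groups of class I included 24 single peaks, and its other groups held at most 4.

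Class III was divided into a lower and an upper part, also after the values were seen. Its lower part, from 31.5 to 31.9 Mb, held 32 of the 45 peaks (80 per Mb, 54.7 to 113) with a median fold of 8.27. In the upper part, from 31.9 to 32.2 Mb, 13 peaks stood at 43.3 per Mb (23.1 to 74.1) with a median fold of 10.95. The intervals of density overlap. The median summit was 15 fragments in the lower and 16 in the upper part, while the signal around peaks was 184 and 110 tags per 10 kb. Both class III groups of 5 or more joined peaks were in the lower part. One ran from 31619594 to 31634031 with 300 tags, and the other from 31693705 to 31706488 with 329 tags and folds of 4.26 to 14.03.

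Of the 4 class III peaks with the highest folds, 3 lay in the upper part. A peak from 31972543 to 31973038 held 48 tags (35.4 to 63.6), with a fold of 21.19 and a summit of 22 fragments. Another, from 32005329 to 32005752, held 38 tags (26.9 to 52.2), with a fold of 21.24 and a summit of 20 fragments. The summits of this pair were 32771 bp apart, with no peak between them, and their tag intervals overlap. The third, from 32048936 to 32049493, reached a fold of 20.44 with 60 tags (45.8 to 77.2). Class III is known for a tandem duplication that carries C4A and C4B, whose near-identical copies can share reads. Whether the like pair lies in it was not tested, and the tags of each are uncertain in that case.

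At the class limits, the nearest peaks were weak to moderate on both sides. Just above 31.5 Mb stood a peak from 31508814 to 31509180 with 33 tags at a fold of 7.36, and just below it one from 31461565 to 31462132 with 32 tags at 6.58. At 32.2 Mb the nearest below, from 32163529 to 32164346, had 53 tags at a fold of 5.39, and the nearest above had 28 tags at 10.57. The last peak inside the region, from 33421788 to 33422497, had 42 tags at 7.75, and the first beyond it, from 33510829 to 33511180, had 22 tags at 13.24. At the lower limit, the first peak inside, from 29457883 to 29458309, had 35 tags at a fold of 9, and the last one outside, from 28984620 to 28985133, had 23 tags at 8.74.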

How the data were processed

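ChIP-seq peaks of 1 Kasumi-1 JMJD1C library were analysed; the other 10 libraries were not analysed here. The submitters' processing notes name hg19 as the build and Bowtie2 2.1.0 and HOMER as tools. Per the file headers, the authors ran MACS 1.4.2 without a control, at a p-value cutoff of 1e-05, for a genome of 2.7 Gb effective size, with the background taken over 10 kb and fragments modelled at 88 bp. Of 29330355 tags, 19897991 were left after keeping 1 per position. The deposited columns are tag counts (not normalised), a score (10 times the negative log10 of the p-value), fold enrichment (a ratio to the local background) and positions. Without input, depth, copy number and repeats can add peaks. Gaps are stretches without called peaks, and how well reads can be placed in them was not tested.

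From these, summits were taken as start plus summit offset. Densities have exact Poisson, density ratios and shares exact Clopper-Pearson, and medians binomial order-statistic 95% intervals, which cover counting error or spread over peaks only. The rest of chromosome 6 runs from its first to its last peak. The background was solved from the Poisson tail of tags and score, and the summit height from background and fold; values were kept when whole within 0.05 (background also within 0.15 of the minimum of 73.7 tags per 10 kb), which an arbitrary value meets in 10% of cases. Peaks shorter than 176 bp or longer than 5000 bp, or holding more tags than the background, were left out. Recovery was tried on simulated data made with the same formulas. That checks the computation and not how the caller made its columns. The 4 peaks of most tags and of highest fold in each class, those beside each limit, groups of 5 or more joined peaks and the 3 longest gaps between peaks of the region were named by rule; divisions within classes were chosen after values were seen. Members and lists were chosen with earlier results of these data known. Alternatives were peak thresholds, class limits, neighbour distances, joining and the comparison region. No hg19 sequence or annotation was used here. Computations ran in Python 3.11.15 with SciPy 1.17.1, NumPy 2.4.6, Matplotlib 3.10.9 and pandas 2.3.3.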

Additional observations from a re-analysis of the deposited data

How the results depend on the processing

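Of 59 alternatives, 27 stayed within the interval of the reported value, 31 moved outside it and 1 reversed. The density of the MHC region over the rest of chromosome 6 reversed to 0.855 against the flanks, and moved to 2.16 with a fold of at least 10 and 3.52 with at least 20 tags. With a fold of at least 10, class III over class I was 1.52 and class II over class I 0.385. Without the outer 0.5 Mb of class I and of class II, class II over class I was 0.444 and class III over class II 4.675. That cut removed 21 class II peaks and 3 class I peaks. The causes were not tested. With a score above the list's median, median tags were 60 in class III, 51 in class II, 57 in class I and 50 on the rest of the chromosome. With a fold of at least 10 they were 60 in class III, 33.5 in class II, 44 in class I and 30 on the rest. On the full list, the flanks had a median of 30. The share of peaks with a neighbour depends on distance and list by construction. Within 2 kb it was 35.6% in class III, 21.9% in class II, 21.5% in class I and 18.4% on the rest, and within 50 kb 100%, 90.6%, 98.5% and 81.4% in the same order. With a score above the median it was 44%, 37.5%, 46.2% and 26.9%, so class III no longer led. With a fold of at least 10 it was 23.5%, 0%, 35% and 20.9%; the 0% is 0 of 8 peaks, which allows up to 36.9%. On the full list, the share in the flanks was 63.3% within 10 kb, 27.1% within 2 kb and 97.3% within 50 kb. Peaks of the region rest on as few as 10 tags, and how far depth limits the list was not tested. No paired analysis was possible because the comparisons lie within a single library.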
